A study of Mus musculus with 6 samples.

Results

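The genes described here carry the β-adrenergic and cAMP signal of fat cells, from receptors through G proteins, adenylyl cyclases, protein kinase A, phosphodiesterases, kinase anchors and CREB factors to the lipases the pathway controls. They were chosen by name as a list of 43 genes. Of these, 41 had a row in the deposited count table of 13962 genes, Adra2a and Rapgef4 were not analysed here, and 39 passed the expression filter that left 13192 tested genes. Adora2a (35 counts over the 6 libraries) and Ptger3 (46 counts) did not pass it.

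Noradrenaline released by sympathetic nerves binds β-adrenergic receptors on adipocytes, which act through the stimulatory G protein to raise adenylyl cyclase activity and cellular cAMP. cAMP releases the catalytic subunits of protein kinase A, which phosphorylate perilipin and hormone-sensitive lipase to start lipolysis and, through CREB and its coactivators, induce thermogenic genes such as Ucp1. Adenosine and prostaglandin receptors coupled to inhibitory G proteins oppose the signal, and phosphodiesterases end it by breaking cAMP down.

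Poly(A) RNA had been sequenced from beige adipocytes, fat cells of white depots that can take on a heat-producing program, grown in culture from preadipocytes of C57BL/6 inguinal white adipose tissue that were immortalized with the large T antigen. All cells carried the genotype TLE3F/F CreERT2, that is, floxed Tle3 and a tamoxifen-inducible Cre, and TLE3 is a transcriptional corepressor of the Groucho family. The group labelled TLE3 knockout (n = 3) received 500 nM tamoxifen, named 4-hydroxytamoxifen in the growth protocol, on day 4 of differentiation for 24 hours, and the controls (n = 3) received ethanol. Both were harvested on day 10. Both groups had been differentiated with 20 nM insulin, 1 nM T3 and 1 uM rosiglitazone throughout and, in the first stage, 0.125 mM indomethacin, 0.5 uM dexamethasone and 0.5 mM isobutylmethylxanthine, itself a phosphodiesterase inhibitor, and the labels name no adrenergic agonist. The labels do not say whether the cells were 1 clone or whether replicates were separate cultures, so the p-values reflect library-to-library spread, part or all of which may be technical. Cells without Cre that received tamoxifen were not analysed here, so the compound, Cre activity and the deletion cannot be told apart.

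Library totals ran from 14606228 to 19294632 counts. Tle3 (ENSMUSG00000032280) stood at 286.9, 288.9 and 294.2 CPM (counts scaled to a common library size) in the libraries labelled knockout and at 151.4, 151.3 and 152.1 CPM in the controls, a log2 fold change of 0.94 (SE 0.038, edgeR adjusted p = 3.54e-07). Gene-level counts also take in exons outside the floxed stretch and so are no check of the deletion. Tle3 thus stood higher where the labels name its knockout, and directions below rest on those labels alone. All 9 brown and beige adipocyte markers had a row, and their summed level was 845.2 to 991.1 CPM in the libraries labelled knockout and 503.2 to 614.7 CPM in controls. Cidea was the largest part of this sum, with a mean of 457.7 CPM in the libraries labelled knockout and 222.5 CPM in controls. The 10 general adipocyte markers summed to 12160 to 13980 CPM in the libraries labelled knockout, against 10780 to 12920 CPM in controls, and 11 of 13 preadipocyte and fibroblast markers with a row to 8073 to 8482 CPM, against 8306 to 9524 CPM. Most of the adipocyte sum came from Fabp4 and Lpl, which did not pass the test, and Cd36, which rose. Most of the fibroblast sum came from Col1a1 and Col3a1, which did not pass the test. Of the 11 fibroblast markers 5 fell, Dcn to 0.495 and Lum to 0.487 of the control level, with Thy1, Pdgfra and Zfp423 at 0.745 to 0.793, and Dlk1 rose by 1.65-fold. Of the adipocyte markers 3 of 10 rose, and of the brown and beige markers 6 of 9 rose and 1 fell. Leukocyte markers (4 of 9 with a row) summed to 6.70 to 8.16 CPM in the libraries labelled knockout and 5.48 to 7.40 CPM in controls, and endothelial markers (4 of 7 with a row) to 3.53 to 4.30 CPM, against 2.30 to 3.83 CPM. The 6 smooth muscle markers summed to 1318 to 1356 CPM in the libraries labelled knockout and 1212 to 1436 CPM in controls, and the 1 of 6 skeletal muscle markers with a row to 10.3 to 12.1 CPM, against 10.8 to 12.5 CPM. Acta2 made up most of the smooth muscle sum, with a mean of 1293 CPM in the libraries labelled knockout and 1301 CPM in controls. Of the 6 smooth muscle markers 2 rose, Des by 1.55-fold and Cspg4 by 1.48-fold (edgeR adjusted p = 0.00131 and 0.0276). The other 4 did not pass the test. Control 3 had the lowest adipocyte sum and the highest fibroblast sum of the 6 libraries. Their part in the results below was not tested, and in such bulk samples fewer cells of a type and less RNA per cell cannot be told apart.

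Of the 39 tested members, 7 rose and 3 fell in the libraries labelled knockout relative to the controls. The 7 that rose were Adrb1, Adora1, Adcy9, Prkar2b, Pde8a, Akap1 and Lipe, and the 3 that fell were Adora2b, Adcy5 and Pde4b. The called members make up 25.6% of the tested ones, against 12.3% of all 13192 tested genes, of which 6.91% rose and 5.44% fell. No test of the list as a whole was made, and the members were chosen with earlier results of these data known. A member is said to rise or fall where edgeR's quasi-likelihood test gave a Benjamini-Hochberg adjusted p under 0.05 over all tested genes. Of the 39 members 17 differed by less than 10%, as did 7815 of the 13192 tested genes. The median log2 fold change was −0.02 (−0.002 over all tested genes), and the median of its absolute size was 0.15 (0.11 over all tested genes). In 7 members every library labelled knockout lay above every control and in 10 every one lay below, or 17 of 39 together, while over all tested genes these shares were 16.0% above, 15.8% below and 31.8% together.

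**Figure D1:**
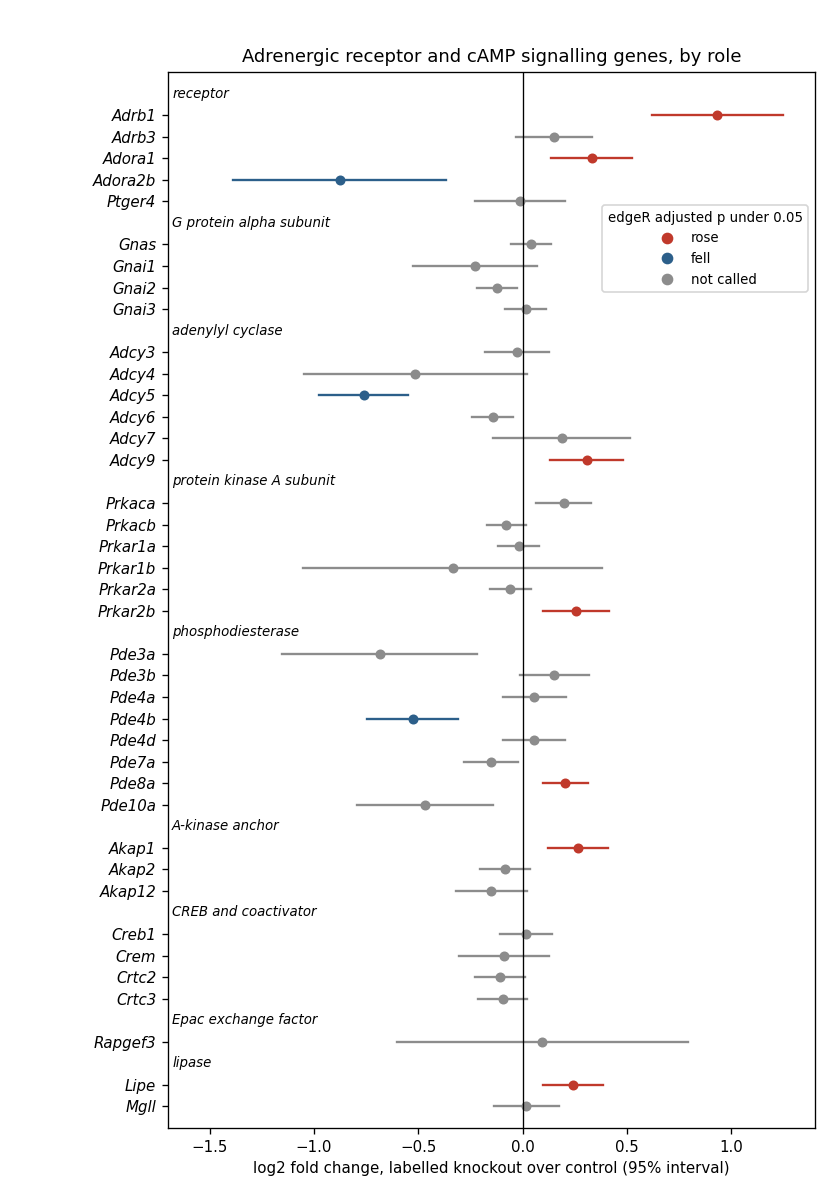
Log2 fold change of the 39 tested members, labelled knockout over control, with 95% intervals, grouped by role; red members rose, blue members fell and grey members did not pass an edgeR adjusted p of 0.05. The largest rise is that of Adrb1 at 0.93 and the lowest value that of Adora2b at −0.88, with most other members within 0.3 of 0.

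The promoters of the 3 members whose calls held under all 12 alternative settings (other scalings, filters and tests, and each library left out) are shown to place the sequence beside the direction of change. They are RefSeq windows of the build GRCm38.p6, running from 250 bases before to 50 bases after the annotated start, 5′ to 3′ on the gene's own strand, at chr19:56721867-56722166 (plus strand) for Adrb1, chr16:35154614-35154913 (plus strand) for Adcy5 and chr4:102421305-102421604 (plus strand) for Pde4b. Pde4b has 4 such windows, and the one with the most matches is given. Capitals mark TGACG, the core of the cAMP response element, on either strand and CCCNNGGG, the core recognized by EBF factors, which reads the same on both strands.
Adrb1: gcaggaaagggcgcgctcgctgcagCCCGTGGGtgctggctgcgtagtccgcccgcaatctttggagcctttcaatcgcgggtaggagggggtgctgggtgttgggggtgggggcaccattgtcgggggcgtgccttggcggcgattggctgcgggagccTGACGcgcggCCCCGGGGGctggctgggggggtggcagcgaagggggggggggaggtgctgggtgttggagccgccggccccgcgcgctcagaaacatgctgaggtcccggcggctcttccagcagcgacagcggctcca
Adcy5: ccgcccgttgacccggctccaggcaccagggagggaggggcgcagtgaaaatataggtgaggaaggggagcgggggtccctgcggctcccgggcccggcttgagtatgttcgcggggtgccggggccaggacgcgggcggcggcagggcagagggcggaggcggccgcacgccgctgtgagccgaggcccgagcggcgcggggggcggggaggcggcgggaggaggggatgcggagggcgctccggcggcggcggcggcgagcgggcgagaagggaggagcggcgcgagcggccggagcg
Pde4b: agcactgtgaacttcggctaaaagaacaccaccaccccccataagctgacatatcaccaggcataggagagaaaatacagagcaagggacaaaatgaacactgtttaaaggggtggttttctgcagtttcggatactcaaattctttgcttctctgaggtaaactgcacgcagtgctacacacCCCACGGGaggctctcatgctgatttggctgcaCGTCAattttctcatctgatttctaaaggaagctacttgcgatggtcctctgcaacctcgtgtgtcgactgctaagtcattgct

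The Adrb1 window holds TGACG 90 bases before the start and 3 matches to CCCNNGGG, of which 2 overlap. In the Pde4b window the reverse complement of TGACG begins 34 bases before the start and CCCNNGGG 67 bases before it, and the Adcy5 window holds neither. Windows were matched by symbol for 32 of the 43 members, 62 windows in all. TGACG was found in 20 of them (32.3%), against 20.8% of all 32851 windows of the same length, CCCNNGGG in 15 (24.2%), against 13.7%, and the full palindrome TGACGTCA, which contains TGACG, in 2 (3.23%), against 1.79%. Counted by gene, 16 of the 32 matched members had TGACG in at least 1 window and 13 of the 32 had CCCNNGGG. Of the 10 members that passed the test, 4 had TGACG in a window (Adcy9, Adrb1, Pde4b and Pde8a) and 6 had CCCNNGGG (Adora1, Adora2b, Adrb1, Akap1, Pde4b and Prkar2b). A gene with several windows has more chances of a match. The share by gene over all genes was not computed, so nothing is read from the counts by gene. All of these are matches of letters in a short window, and neither binding nor function was measured.

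Among the receptors, Adrb1 (ENSMUSG00000035283), which encodes the β1-adrenergic receptor, nearly doubled. It was at 7.61, 8.64 and 8.44 CPM in the libraries labelled knockout and at 4.46, 5.08 and 3.52 CPM in controls 1 to 3. The groups did not overlap, and the log2 fold change was 0.93 (SE 0.142, 95% interval 0.62 to 1.25; edgeR adjusted p = 0.0025), a 1.91-fold rise resting on 122 to 126 counts per library labelled knockout and 69 to 79 per control. Adrb3, the β3-adrenergic receptor typical of rodent adipocytes, was at 21.5, 20.3 and 20.0 CPM in the libraries labelled knockout and 17.9, 17.1 and 20.5 CPM in controls, where control 3 lay among the others (log2 0.15, 95% interval −0.03 to 0.33, edgeR adjusted p = 0.273). On the authors' rounded FPKM scale, which is per length, Adrb3 was listed at 7 in each library labelled knockout and at 6 or 7 in the controls, and Adrb1 at 3 in each library labelled knockout and at 1 or 2 in the controls. The CPM ratio of Adrb1 to Adrb3 was 0.354, 0.427 and 0.421 in the libraries labelled knockout and 0.248, 0.296 and 0.172 in controls, a difference of 0.78 on the log2 scale that ran from 0.56 without control 3 to 0.95 without control 2.

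The adenosine receptor genes moved in opposite directions. Adora1 (ENSMUSG00000042429), the A1 receptor that couples to inhibitory G proteins and restrains lipolysis, was at 56.9, 71.8 and 68.7 CPM in the libraries labelled knockout and 51.4, 57.7 and 48.3 CPM in controls. It rose by 1.26-fold (log2 0.33, SE 0.0872, edgeR adjusted p = 0.0315), although labelled knockout 1 lay below control 2. This call was lost without labelled knockout 2 (adjusted p 0.116), labelled knockout 3 (0.136), control 1 (0.0975) or control 3 (0.0851), and in GENCODE M21 an exon of Adora1 overlaps Mybph on the other strand, which was not analysed here. Adora2b (ENSMUSG00000018500), the A2B receptor that couples to the stimulatory G protein, was at 1.19, 0.97 and 0.74 CPM in the libraries labelled knockout (19, 14 and 11 counts) and at 1.81, 1.76 and 1.79 CPM in controls (32, 26 and 35 counts). All 3 libraries labelled knockout were below all controls, and the gene fell by 0.88 on the log2 scale (SE 0.232, edgeR adjusted p = 0.0314); DESeq2 did not call it (adjusted p 0.151), nor did edgeR when labelled knockout 2 (0.0881), labelled knockout 3 (0.142), control 1 (0.0887), control 2 (0.0506) or control 3 (0.0811) was left out. Ptger4, a prostaglandin E receptor, was at 11.5 ± 0.428 CPM in the libraries labelled knockout and 11.5 ± 1.2 CPM in controls (SD, n = 3 each; edgeR adjusted p = 0.955). The other 2 receptors, below the filter, had 13 counts in the libraries labelled knockout and 22 in controls for Adora2a and 17 and 29 for Ptger3.

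**Figure D2:**
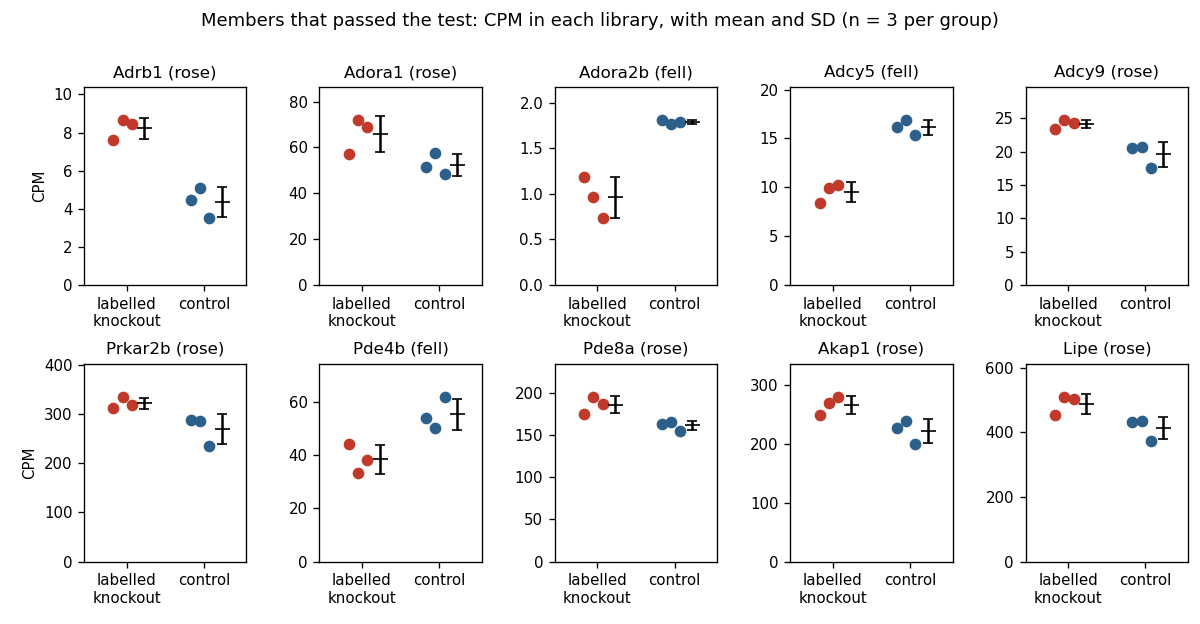
CPM of the 10 members that passed the test in each library (points), with the mean and SD of each group beside them (n = 3), labelled knockout on the left and control on the right; axes start at 0. The groups overlap in 1 panel, Adora1, and control 3 is the lowest library in all 7 members that rose. The same count was not made over all genes that rose, so nothing is read from it.

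None of the 4 G protein α subunit genes passed the test. Gnas, which encodes the stimulatory subunit, was at 668.9, 707.4 and 698.8 CPM in the libraries labelled knockout and 687.6, 670.8 and 659.4 CPM in controls. The groups overlapped, and the 95% interval of the log2 fold change was −0.06 to 0.14 (edgeR adjusted p = 0.601). Gnas exons overlap antisense genes in the annotation, among them Nespas, at 1.23 CPM in the libraries labelled knockout and 1.09 CPM in controls. Of the inhibitory subunits, Gnai2 was at 141.8 ± 1.67 CPM in the libraries labelled knockout and 154.2 ± 6.78 CPM in controls (SD, n = 3 each), with no overlap between groups, a log2 fold change of −0.12 and an edgeR adjusted p of 0.096, which passed only without control 2 (0.0322). Gnai3 (log2 0.01) and the low Gnai1 (log2 −0.23, adjusted p = 0.302) did not pass the test either.

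Of the 6 adenylyl cyclases, which make cAMP, 1 rose (Adcy9), 1 fell (Adcy5) and 4 did not pass the test. Adcy5 (ENSMUSG00000022840) was at 8.36, 9.96 and 10.2 CPM in the libraries labelled knockout and 16.1, 16.9 and 15.4 CPM in controls. The groups were well apart, and the gene fell by 0.76 on the log2 scale (SE 0.0962, 95% interval −0.98 to −0.55; edgeR adjusted p = 0.00091), to 0.589 of the control level. Adcy9 (ENSMUSG00000005580) was at 23.4, 24.7 and 24.3 CPM in the libraries labelled knockout and 20.6, 20.6 and 17.5 CPM in controls. It rose by 1.24-fold (log2 0.31, SE 0.0793, edgeR adjusted p = 0.0295) with no overlap between groups, a call lost without labelled knockout 2 (adjusted p 0.0891), labelled knockout 3 (0.108) or control 3 (0.0832). Adcy6, an isoform inhibited by calcium as Adcy5 is, was at 170.8, 163.8 and 172.6 CPM in the libraries labelled knockout and 181.8, 183.6 and 195.1 CPM in controls. Every library labelled knockout was below every control, but the log2 fold change of −0.14 had an edgeR adjusted p of 0.0541 (0.0442 with library size alone). Adcy6 accounted for 69.2% to 71.8% of the summed rounded FPKM of the 6 cyclases in the libraries labelled knockout and 73.2% to 75.0% in controls, whereas Adcy5 was listed at an FPKM of 1 in each library labelled knockout and 2 in each control. The CPM ratio of Adcy5 to Adcy6 averaged 0.0562 in the libraries labelled knockout and 0.0864 in controls. Adcy3 (log2 −0.03), Adcy4 (−0.51, at 1.41 to 2.74 CPM in the libraries labelled knockout and 2.50 to 3.61 CPM in controls) and Adcy7 (0.19) did not pass the test, with edgeR adjusted p from 0.198 to 0.838.

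Of the 6 protein kinase A subunit genes, 1 rose. Prkar2b (ENSMUSG00000002997) encodes RIIβ, the regulatory subunit most typical of fat, and was at 312.2, 335.2 and 318.1 CPM in the libraries labelled knockout and 289.0, 286.7 and 234.7 CPM in controls. All libraries labelled knockout were above all controls, with control 3 well below the other controls, and the rise was 1.19-fold (log2 0.25, SE 0.0719, edgeR adjusted p = 0.0419). It was lost without labelled knockout 1 (adjusted p 0.0649), 2 (0.138) or 3 (0.126) or control 1 (0.0503), and the log2 fold change was 0.16 without control 3, where it still passed. Prkaca, the main catalytic subunit, was at 209.4, 216.7 and 218.5 CPM in the libraries labelled knockout and 200.2, 193.7 and 169.2 CPM in controls. These groups did not overlap either, with a log2 fold change of 0.20 and an edgeR adjusted p of 0.0527; it passed with the replicate block (0.0438), with DESeq2 (0.0404) and without control 1 (0.0468) or control 2 (0.0471). Prkacb, Prkar1a and Prkar2a had log2 fold changes of −0.08, −0.02 and −0.06 with 95% intervals between −0.17 and 0.08, and Prkar1b was near 1 CPM. On the rounded FPKM scale Prkaca (91 to 93 in the libraries labelled knockout, 74 to 87 in controls), Prkar2b (86 to 91 and 65 to 79) and Prkar1a (75 to 77 and 74 to 82) were the highest of the 6.

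Of the 8 phosphodiesterases, 1 rose (Pde8a), 1 fell (Pde4b) and 6 did not pass the test. Pde4b (ENSMUSG00000028525), a cAMP-specific isoform known to be induced by cAMP, was at 44.1, 33.1 and 38.0 CPM in the libraries labelled knockout and 53.8, 50.3 and 61.8 CPM in controls. The groups did not overlap, and the gene fell by 0.53 on the log2 scale (SE 0.0986, 95% interval −0.74 to −0.31; edgeR adjusted p = 0.00702). Its paralog Pde4d was at 29.1, 27.5 and 25.3 CPM in the libraries labelled knockout and 25.8, 27.1 and 26.0 CPM in controls, with overlapping groups (log2 0.06, adjusted p = 0.651). A second row of the table with the name Pde4d, which had fewer counts, had a log2 fold change of −0.01. Pde8a (ENSMUSG00000025584), an isoform with high affinity for cAMP that isobutylmethylxanthine does not inhibit, was at 174.8, 194.8 and 187.0 CPM in the libraries labelled knockout and 163.0, 165.7 and 154.6 CPM in controls. It rose by 1.15-fold with no overlap (log2 0.20, SE 0.0493, edgeR adjusted p = 0.0223), and did not pass without labelled knockout 2 (adjusted p 0.0884), labelled knockout 3 (0.0994), control 1 (0.0605) or control 3 (0.0536). Pde3b, through which insulin lowers cAMP in adipocytes, was at 236.9, 271.1 and 256.1 CPM in the libraries labelled knockout and 228.6, 255.4 and 204.1 CPM in controls. Its groups overlapped, with a log2 fold change of 0.15 (95% interval −0.01 to 0.32, edgeR adjusted p = 0.217) that passed without control 2 (0.0358).

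The low-level isoforms Pde3a and Pde10a lay below the controls in every library labelled knockout without passing the test. Pde3a was at 1.18 to 1.81 CPM in the libraries labelled knockout and 2.09 to 2.50 CPM in controls (log2 −0.69, edgeR adjusted p = 0.0578). Pde10a was at 9.47 to 11.5 CPM in the libraries labelled knockout and 12.4 to 18.1 CPM in controls (log2 −0.47, adjusted p = 0.0613), and it passed with the replicate block (0.0323), with DESeq2 (0.0375) and without control 2 (0.0406). Pde7a (log2 −0.15, adjusted p = 0.123) also lay below the controls in every library labelled knockout, and Pde4a was at 34.6 ± 2.75 CPM in the libraries labelled knockout and 33.2 ± 1.66 CPM in controls (SD, n = 3 each; adjusted p = 0.648). On the rounded FPKM scale Pde8a (43 to 48 in the libraries labelled knockout, 39 to 41 in controls) and Pde3b (35 to 39 and 30 to 37) made up most of the summed level of the 8 isoforms, and Pde4b was listed at 3 to 4 and 5 to 6.

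Akap1 (ENSMUSG00000018428) was the 1 of 3 kinase anchor genes that rose. It encodes an anchor that holds protein kinase A at the outer mitochondrial membrane, and was at 249.4, 269.6 and 279.6 CPM in the libraries labelled knockout and 226.4, 238.6 and 199.7 CPM in controls. The groups did not overlap and the rise was 1.2-fold (log2 0.27, SE 0.0656, edgeR adjusted p = 0.024), lost without labelled knockout 2 (adjusted p 0.0759), labelled knockout 3 (0.124) or control 1 (0.0618). Akap12 (log2 −0.15, adjusted p = 0.237) and Akap2 (log2 −0.09, adjusted p = 0.339) had overlapping groups, with control 3 the highest library for each. Akap2 shares exons with Pakap on the same strand in GENCODE M21, so its counts are uncertain.

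None of the 4 genes for CREB factors and their coactivators changed by as much as 10%, and none passed the test. Creb1 was at 67.8, 75.1 and 65.6 CPM in the libraries labelled knockout and 68.7, 70.8 and 66.6 CPM in controls. All 3 controls lay within the range of the libraries labelled knockout (log2 0.02, 95% interval −0.11 to 0.14, edgeR adjusted p = 0.883). Crem, whose short product is a repressor induced by cAMP, was at 12.2, 10.9 and 9.98 CPM in the libraries labelled knockout and 11.9, 12.1 and 11.3 CPM in controls (log2 −0.09, 95% interval −0.31 to 0.13, adjusted p = 0.6). Counts per gene do not separate its isoforms. Crtc2 and Crtc3 had log2 fold changes of −0.11 and −0.10 (adjusted p = 0.213 and 0.266), and the Epac gene Rapgef3, a cAMP-activated exchange factor, varied from 1.42 to 4.90 CPM among the controls alone (adjusted p = 0.885).

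Of the lipases, Lipe rose and Mgll did not pass the test. Lipe (ENSMUSG00000003123) encodes hormone-sensitive lipase, the target of protein kinase A, and was at 452.6, 509.8 and 502.8 CPM in the libraries labelled knockout and 432.7, 434.2 and 373.1 CPM in controls. No control reached the lowest library labelled knockout, and the rise was 1.18-fold (log2 0.24, SE 0.0662, edgeR adjusted p = 0.0368). It did not pass without labelled knockout 2 (adjusted p 0.13), labelled knockout 3 (0.155), control 1 (0.0612) or control 3 (0.0718), and Lipe exons overlap an antisense gene, 4732471J01Rik, that was not analysed here. Mgll, which cleaves the last fatty acid from monoglyceride, was at 148.5, 167.2 and 172.4 CPM in the libraries labelled knockout and 172.7, 164.8 and 145.0 CPM in controls (log2 0.02, 95% interval −0.14 to 0.17, adjusted p = 0.908). Its groups overlapped almost entirely.

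In all 7 members that rose, control 3 was the lowest of the 6 libraries, and in 6 of the 7 labelled knockout 2 was the highest. The same counts were not made over all genes that rose, so nothing particular to the members is read from them. Over the 39 members control 3 held the lowest value in 11 and the highest in 12, against 3156 and 3119 of 13192 tested genes. This is the control with the lowest sum of adipocyte markers and the highest sum of fibroblast markers. With control 3 left out, Adrb1, Prkar2b, Akap1, Adcy5 and Pde4b still passed the test, and 3 members rose and 2 fell in all. Without control 1, 3 rose (Adrb1, Adcy9 and, not among the 7, Prkaca), and without labelled knockout 2 or labelled knockout 3 Adrb1 was the 1 that rose; in each of these 3 fits Adcy5 and Pde4b were the 2 that fell. Adrb1, Adcy5 and Pde4b thus passed under all 12 alternative settings, with log2 fold changes of 0.79 to 1.05, −0.82 to −0.67 and −0.64 to −0.43. Fits on 5 libraries have fewer residual degrees of freedom than the fit on 6.

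**Figure D3:**
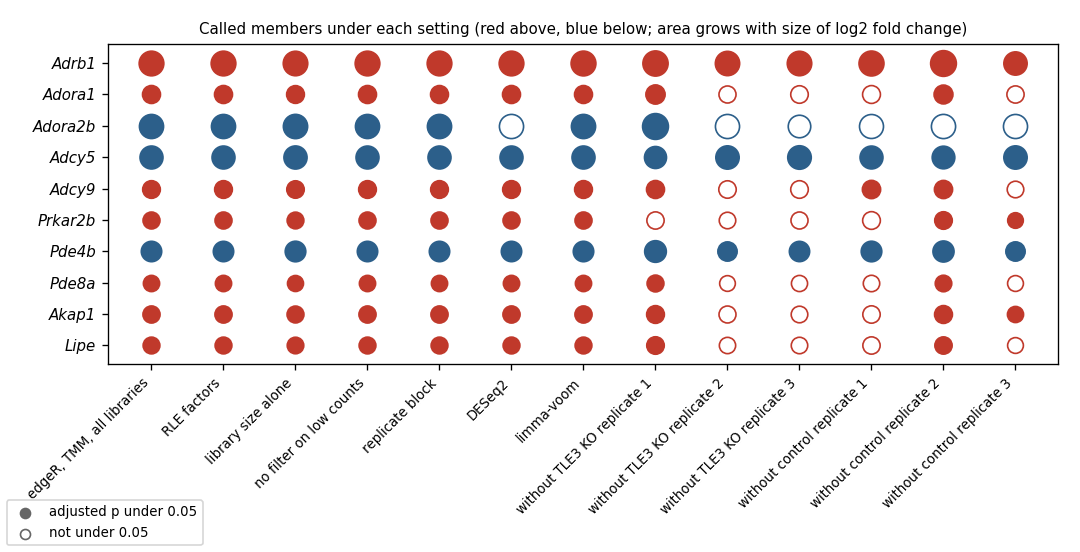
Calls of the 10 members that passed the test (rows) with all libraries and under 12 alternative settings (columns); filled circles have an adjusted p under 0.05, open ones do not, red is above and blue below the controls, and circle area grows with the size of the log2 fold change. The rows of Adrb1, Adcy5 and Pde4b are filled throughout, while the other 7 have open circles, most of them where 1 library was left out.

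Ratios between paired members were compared because they do not depend on the scaling of a library. Of 10 pairs written down, 9 could be computed, and in 8 the 3 libraries labelled knockout did not overlap the 3 controls. Single genes did not overlap in 31.8% of cases, and since the share for ratios of other genes was not computed, nothing is read from the count of 8. Each of the 8 had an exact two-sided permutation p of 0.1, the smallest that 3 against 3 libraries allow, or 0.113 after Benjamini-Hochberg adjustment over the 9. The ratio of Prkar2b to Prkar2a, both type II regulatory subunits, was 2.65, 2.63 and 2.63 in the libraries labelled knockout and 2.35, 2.21 and 1.82 in controls. That of Prkaca to Prkacb was 1.77, 1.93 and 1.85 in the libraries labelled knockout, against 1.61, 1.61 and 1.37. The Pde4b to Pde4d ratio was lower in every library labelled knockout, at 1.51, 1.2 and 1.5, than in the controls, at 2.08, 1.85 and 2.37, and the Pde3b to Pde3a ratio averaged 182 in the libraries labelled knockout and 98.6 in controls, with a denominator of few counts. Prkar2b to Prkar1a and Gnas to Gnai2 differed by 0.28 and 0.16 on the log2 scale. The pair of coactivators, Crtc2 and Crtc3, had overlapping ratios, 1.25 on average in the libraries labelled knockout and 1.26 in controls (exact permutation p = 0.8). A pair that holds a member described above repeats that member's difference and is not separate evidence of it.

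**Figure D4:**
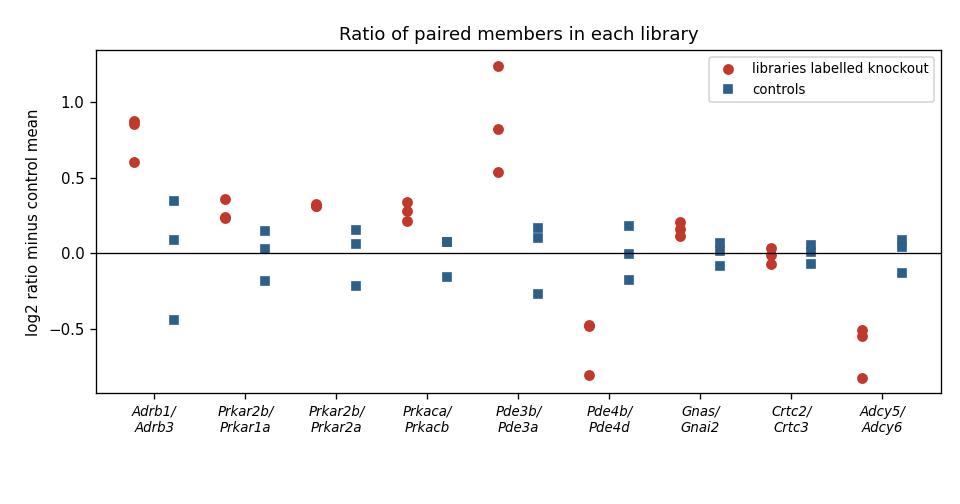
Log2 ratio of 2 members in each library minus the mean log2 ratio of the controls (vertical axis) for 9 pairs (horizontal axis), with libraries labelled knockout as red circles left of the controls as blue squares. The groups are apart in every pair but Crtc2/Crtc3, by 0.78 for Adrb1/Adrb3 and by −0.58 and −0.62 for Pde4b/Pde4d and Adcy5/Adcy6.

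Genes of the same pathway that are not among the 43 were read from the same fit, in lists written by function. Together 116 were tested, of which 7 rose and 8 fell, or 12.9%, close to the 12.3% of all tested genes, with a median log2 fold change of 0.01. Of 22 further receptors 1 passed the test, and it fell. This was Lpar1, a lysophosphatidic acid receptor, at 38 ± 1.99 CPM in the libraries labelled knockout and 56.5 ± 4.99 CPM in controls (log2 −0.58, edgeR adjusted p = 0.000638). The lactate receptor Gpr81, which restrains lipolysis, was at 53.3 ± 5.6 CPM in the libraries labelled knockout and 41.4 ± 7.45 CPM in controls (adjusted p = 0.06).

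Among 18 G protein and cyclase genes, Gnao1, an inhibitory-class α subunit, rose to 14.5 CPM in the libraries labelled knockout, against 9.76 CPM in controls (log2 0.57, adjusted p = 0.00734), Gng5 rose (log2 0.27, adjusted p = 0.0359) and the β subunit gene Gnb4 fell (log2 −0.27, adjusted p = 0.017). In the 17 desensitization genes the RGS genes Rgs2 (log2 0.25, adjusted p = 0.00664) rose and Rgs16 (log2 −0.53, adjusted p = 0.0102) fell, while receptor kinases and arrestins did not pass. Of 10 other phosphodiesterases, Pde2a, which cGMP stimulates, rose (log2 0.23, adjusted p = 0.0254). Pde5a, which breaks down cGMP, fell to 7.79 CPM in the libraries labelled knockout, against 13.2 CPM in controls (log2 −0.76, edgeR adjusted p = 0.00298). Of 15 anchors and inhibitors of protein kinase A, the inhibitor gene Pkia (log2 −0.34, adjusted p = 0.0308) and Akap13 (log2 −0.16, adjusted p = 0.0356) fell. Of 17 CREB-related and Rap genes, Atf2, a factor that binds cAMP response elements and is activated by p38 kinase, rose to 156.5 CPM in the libraries labelled knockout, against 121.7 CPM in controls (log2 0.36, adjusted p = 0.000568), and Rap1b fell (log2 −0.14, adjusted p = 0.038). Of 17 lipolysis genes, Plin5 (log2 0.34, adjusted p = 0.0418) and Acsl1 (log2 0.20, adjusted p = 0.035) rose and Plin4 fell (log2 −0.21, adjusted p = 0.0422), and the first lipase of the pathway, Pnpla2, was at 318.2 ± 21.1 CPM in the libraries labelled knockout and 301.3 ± 15.9 CPM in controls (SD, n = 3 each; adjusted p = 0.404). Lpar1, Gnao1, Rgs2, Pde5a and Atf2 passed under all 12 settings. Without labelled knockout 3 the other 10 did not pass (adjusted p 0.0584 to 0.171), and 9 of the 10, all but Rgs16, did not pass without labelled knockout 2 either (0.0645 to 0.142). With DESeq2 Gng5 (0.0896), Pkia (0.0699), Akap13 (0.0552) and Rap1b (0.124) did not pass, and with the replicate block Akap13 (0.0553) and Rap1b (0.0697) did not. Calls were also lost for Gnb4 without control 1 (0.0614) or control 3 (0.0536), Gng5 and Plin4 without control 1 (0.102 and 0.118) or control 2 (0.0714 and 0.07), Pde2a without control 1 (0.093), Plin5 without control 3 (0.0696), Pkia and Acsl1 without labelled knockout 1 (0.0597 and 0.061), control 1 (0.0846 and 0.0977) or control 3 (0.109 and 0.0776), Plin4 without labelled knockout 1 (0.133), Akap13 without any 1 control (0.0659 to 0.0769), and Rap1b without any 1 library (0.0568 to 0.142).

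Genes that cAMP is known to induce, a list also chosen with earlier results of these data known, did not move together. Of 28 tested, 4 rose and 6 fell, or 35.7%, against 12.3% of all tested genes, and the median log2 fold change was −0.09. Those that rose were Ucp1 (102.9 ± 7.57 CPM in the libraries labelled knockout and 70.9 ± 8.35 CPM in controls; log2 0.54, edgeR adjusted p = 0.00241), the gluconeogenic and glyceroneogenic enzyme gene Pck1 (log2 0.53, adjusted p = 0.000561), the coactivator gene Ppargc1a (log2 0.32, adjusted p = 0.00324) and Rgs2. Those that fell were the orphan nuclear receptor gene Nr4a1, at 21.2, 19.6 and 21.1 CPM in the libraries labelled knockout and 34.8, 32.8 and 39.8 CPM in controls (log2 −0.80, adjusted p = 0.000201), the neurotrophin gene Bdnf (log2 −0.66, adjusted p = 0.00283), Elovl3 (log2 −0.66, adjusted p = 0.0469), the early growth response gene Egr1 (log2 −0.34, adjusted p = 0.0111), the matrix glycoprotein gene Thbs1 (log2 −0.30, adjusted p = 0.00866) and Cited2 (log2 −0.28, adjusted p = 0.0333). Fos, Per1, Cebpb and Dusp1 had log2 fold changes between −0.01 and 0.02 and did not pass. Nr4a2 (log2 −0.53, edgeR adjusted p = 0.0662) and Atf3 (log2 −0.20, adjusted p = 0.184) did not pass either, with every library labelled knockout below every control. Over the 28 genes, all libraries labelled knockout lay below all controls in 8 and above them in 4. Over all tested genes these shares were 15.8% below and 16.0% above. Nr4a1, Bdnf, Ucp1, Pck1 and Ppargc1a passed under all 12 settings. Egr1 (adjusted p 0.068) and Thbs1 (0.0557) did not pass without labelled knockout 3, Cited2 without labelled knockout 1 to 3, control 1 or control 3 (0.057 to 0.11), and Elovl3 without labelled knockout 2 or 3 or control 2 or 3 (0.1 to 0.155), with the replicate block (0.0553), with DESeq2 (0.0822) or with limma-voom (0.0577). Elovl3 and Cited2 are named beyond the 8 genes with the smallest adjusted p that were to be given per list, after their values were seen. Several of these genes respond to signals other than cAMP, and Ucp1 and Elovl3 are also brown fat markers. The summed level of those markers was higher in the libraries labelled knockout, as was Ucp1, whereas Elovl3 was lower.

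**Figure D5:**
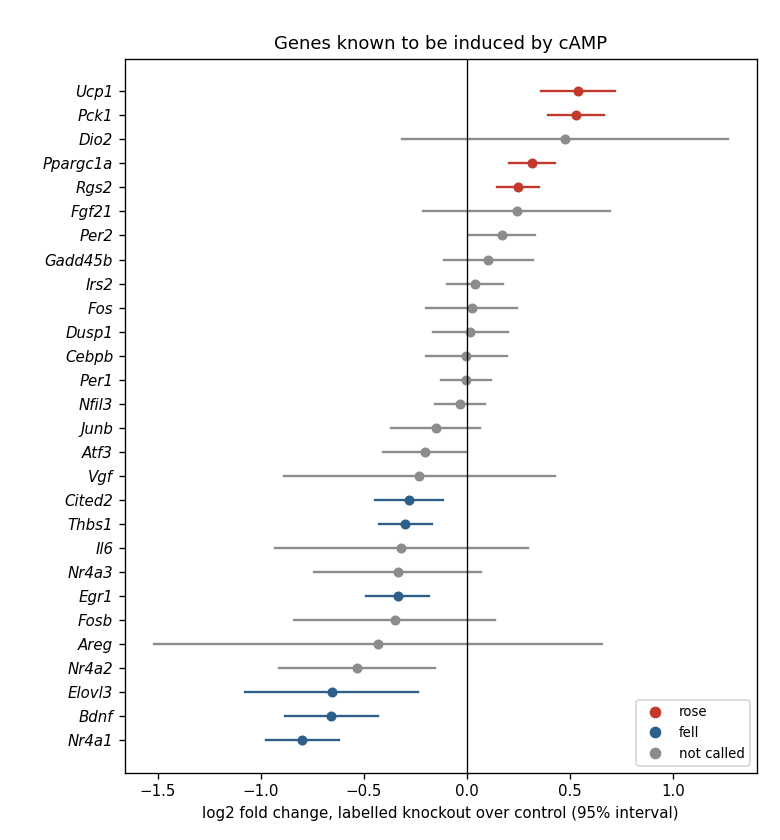
Log2 fold change, labelled knockout over control, with 95% intervals, of 28 tested genes known to be induced by cAMP, sorted by value; red rose, blue fell and grey did not pass. Ucp1 and Pck1 lie near 0.5 at the top and Nr4a1 at −0.80 at the bottom, with 4 rises and 6 falls.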

How the data were processed

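The authors deposited whole-number read counts per gene and, per the file headers, FPKM values, which were rounded to whole numbers and treated here as a score that serves only to set levels per length. Novoalign 2.8, Picard, DESeq2 and mm9 are named in the submitters' processing notes, while for the read counter, the annotation and the strand setting the sources used here name nothing. Genes that overlap others are therefore uncertain, as 14 of the 41 members with a row do in GENCODE M21. Every gene of the table had at least 10 counts in some library. Where a name had several rows, the one with the most counts was used.

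The test was that of edgeR 4.0.16, run in R 4.3.3, with an expression filter by group (770 genes set aside), TMM scaling, and the quasi-likelihood test with group alone over all 6 libraries (biological coefficient of variation 5.25%). The SE is the log2 fold change divided by the root of F. Alternatives were RLE factors, library size alone, no filter, a replicate block, DESeq2 1.42.0, limma-voom (limma 3.58.1) and leaving out each library. The script was tested on simulated data. Libraries within a group differed beyond sampling noise (chi-square per degree of freedom 2.97 to 7.81). Values per library were given for called members and a fixed set of others. For the other lists called genes were named, with a few uncalled ones chosen after their values were seen (Gpr81, Pnpla2, Fos, Per1, Cebpb, Dusp1, Nr4a2, Atf3). The members and lists were chosen with earlier results of these data known.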

Additional observations from a re-analysis of the deposited data

How the results depend on the processing

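RLE factors, library size alone, no filter on low counts, the replicate block, DESeq2 and limma-voom kept the counts of rises and falls, over all genes and over members, within 1.5 times those of the unblocked edgeR fit. Leaving out 1 library gave 332 to 1025 genes that rose, 289 to 870 that fell, 1 to 9 members that rose and 2 to 4 that fell. Of the 10 called members, 3 passed under all 12 settings and 0 changed direction; of the 29 others, 5 (Gnai2, Adcy6, Prkaca, Pde3b and Pde10a) passed under some setting. The sign changed under some setting in 8 members that were never called, with log2 fold changes over the fits without 1 library of −0.06 to 0.084 for Ptger4, −0.007 to 0.052 for Gnai3 (and −0.001 with library size alone), −0.078 to 0.001 for Adcy3, −0.048 to 0.022 for Prkar1a, −0.009 to 0.102 for Pde4a, −0.041 to 0.057 for Creb1, −0.23 to 0.46 for Rapgef3 and −0.052 to 0.081 for Mgll; the cause was not tested. With the replicate number as a block, 8 members rose and 4 fell, and 1032 genes rose and 777 fell. Deviations from the group means correlated by −0.082, 0.307 and 0.049 between same-numbered libraries, and labelled knockout 1 correlated best with control 3 (0.389). Since each group holds 3 libraries, these correlations are not independent and cannot decide whether the numbers pair the libraries. Members at about 1 CPM, such as Adora2b, Pde3a and Prkar1b, rest on few counts, and small differences in them may have been missed. How small a difference could be detected in them was not computed.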
